A study of Homo sapiens with 6 samples.

Results

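The endoplasmic reticulum (ER) holds a set of genes for folding secreted and membrane proteins and for disposing of those that do not fold. The 42 such genes described here were chosen as a list of symbols: the ATF6 and XBP1 arm of the unfolded protein response (UPR), ER chaperones, disulfide isomerases and the machinery of ER-associated degradation (ERAD). Of the 42, 41 had a row among the 58395 genes of the deposited table. VIMP1 is the symbol of no gene in the GENCODE annotation, so no value is given for it. All 41 were also among the 23806 genes tested.

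RNA was sequenced from MDA-MB-231 cells, an invasive breast cancer cell line, in 2 groups of 3 libraries that the study calls biological replicates. Cells of the siCTR group had received a non-targeting siRNA. Those of the siCRP2 group had received a single siRNA, siCRP2#a, against CSRP2, the gene of the cytoskeletal LIM domain protein CRP2, and by the labels both groups were harvested 65 h after transfection. Values are given as CPM, the counts of a gene scaled to the size of its library. A column name carries a code (0412, 0611 or 1311) that a library of each group shares, and libraries are named by it.

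Unfolded proteins in the ER are sensed by the transmembrane proteins ATF6, IRE1 (gene ERN1) and PERK. ATF6 is cut in the Golgi to release a transcription factor, and IRE1 splices the mRNA of XBP1 so that it encodes an active one. Together these factors raise transcription of ER chaperones and ERAD genes through ER stress response elements in their promoters, a system that secretory and cancer cells with a high load of ER proteins use.

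CSRP2, the target, stood at 13.7, 11.7 and 11.4 CPM in the siCTR libraries 0412, 0611 and 1311 and at 2.17, 1.78 and 1.89 CPM in the siCRP2 libraries of the same codes, a log2 fold change of -2.66 (SE, its standard error, 0.178, with an adjusted p = 2.4e-08 by the quasi-likelihood test of edgeR). Library totals ran from 17336798 to 39115778 counts, with the siCRP2 library 1311 the deepest. The 8 genes taken as markers of the line summed to 6707 to 8678 CPM in siCTR and 6130.4 to 7005 CPM in siCRP2 libraries, and of 6 genes expected to be low, which summed to 151 to 165 CPM over all libraries, PGR was at 0. The 10 leukocyte, endothelial and adipocyte markers summed to 11.5 to 24.5 CPM in siCTR and 5.82 to 9.06 CPM in siCRP2 libraries, with ADIPOQ at 0. Single markers did move with the groups. Of the markers of the line, AXL and CD59 were lower in siCRP2 cells (log2 fold changes -1.06 and -0.62, edgeR adjusted p = 3.1e-06 and 0.047), CDH1, of the genes expected to be low, was higher (0.94, 0.00065), and PECAM1 and LYZ, of the other cell types, were lower (-1.47 and -1.51, 0.0099 and 0.0052). Their part in the results was not tested. The 41 genes together took 1.29% to 1.44% of the counts in siCTR and 1.39% to 1.43% in siCRP2 libraries.

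After siCRP2, 17 of the 41 genes rose and 8 fell at an adjusted p under 0.05 (edgeR's quasi-likelihood test), against 12.5% and 11.5% of all genes tested, and 16 did not pass. Chaperones of the HSP70 system and genes of ERAD held 12 of the 17 that rose. HM13, which encodes the signal peptide peptidase, fell most, from 331 ± 46.2 to 81.1 ± 6.95 CPM (SD, n = 3 per group). DNAJB9, an HSP40 co-chaperone, rose most, from 52.5 ± 9.20 to 114 ± 16.7 CPM (SD, n = 3 per group). The median log2 fold change over the 41 genes was 0.19, against -0.02 over all genes tested.

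Calls were more common among expressed protein-coding genes. Protein-coding genes averaging 5 CPM or more, a class to which 39 of the 41 belong, had 18.0% lower and 25.9% higher, and their median log2 fold change was 0.08. With the code as a block in the fit, 21 of the 41 rose and 10 fell, against 19.5% and 17.8% of all genes. Of the 10446 expressed protein-coding genes, 4085 rose and 2817 fell in that fit. The siCRP2 libraries lay above all siCTR libraries for 20 of the 41 genes and below all of them for 9, against 19.4% and 18.0% of all genes. For the expressed protein-coding genes these counts were 3663 and 2413 of 10446. A fold change over 1.5 at an adjusted p under 0.05 was found for 4 genes that rose and 5 that fell, against 4.58% and 7.8% of all genes. Of the 10446, 826 rose and 1027 fell past that limit. Without siCRP2 1311, the deepest library, 9 of the 41 rose, and 12 without siCRP2 0611, where the share of all genes tested called higher also went down, to 8.46% and 8.71%. The count of genes that fell was 5 without siCRP2 0412, siCRP2 1311 or siCTR 0611, where 10.2%, 9.36% and 8.86% of all genes were lower, and 6 by edgeR's exact test (11.9%). The RNA is that of whole cultures, in which fewer cells expressing a gene and less of its RNA per cell cannot be told apart.

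**Figure D1:**
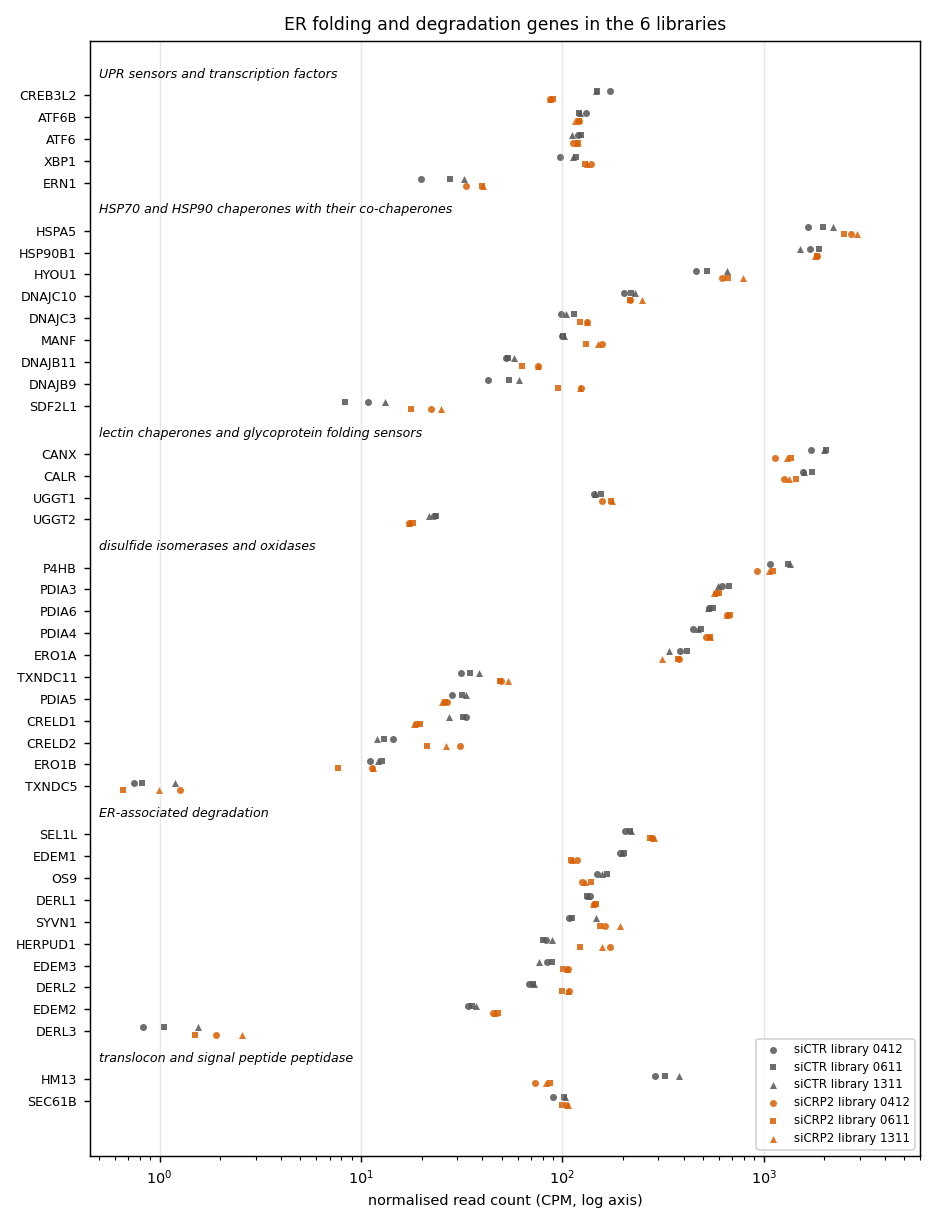
Normalised read count (CPM, log axis) of each of the 41 genes in every library, grouped by role and ordered by the mean level in siCTR. Grey points are siCTR and orange points siCRP2 libraries, the shape marks the code, and HM13 shows the widest gap between groups, at 288 to 380 CPM against 73.4 to 87.0 CPM.

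Per kilobase of the canonical transcript, the mean siCTR level was highest for CALR (856 CPM per kb), followed by HSP90B1 (609), P4HB (511), HSPA5 (496), CANX (390), PDIA6 (237) and HM13 (193). Between neighbours of that order, HSP90B1 (± 63.3 SD), P4HB (± 62.9) and HSPA5 (± 69.9) lay within their spread. In siCRP2 cells HSPA5 stood at 692 ± 52.9 CPM per kb and CALR at 711 ± 48.6 (SD, n = 3 per group), within their spread. HM13 stood at 47.3 ± 4.05 CPM per kb. ERN1 (3.37 CPM per kb in siCTR), ERO1B (2.41), DERL3 (0.370) and TXNDC5 (0.313) had the lowest values. DERL3 and TXNDC5 share 77.0% (opposite strand) and 60.9% (same strand) of their exon bases with another gene. Their counts therefore depend on how shared reads were assigned.

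The known promoter elements of this arm were looked for in the window from 250 bases before to 50 after the RefSeq start of a gene (GRCh38.p14), which was at hand for 37 of the 41 genes. Their letters are CCAAT, 9 bases of any kind and CCACG for the ER stress response element (ERSE), ATTGG, 1 base and CCACG for ERSE-II, and TGACGTGG for the core of the unfolded protein response element (UPRE), on either strand. ERSE stood in 7 of the 37 promoters and in 22 of all 27305 (0.0806%), ERSE-II in 3 of the 37 and 15 of all (0.0549%), and the UPRE core in 3 of the 37 and 217 of all (0.795%). Any of them stood in 12 of the 37 and in 0.927% of all promoters. An ERSE-II and the UPRE core overlap in HYOU1. The matches of the 7 genes with an ERSE or ERSE-II whose change passed the test follow, each read 5′ to 3′ on the strand that holds it, with the fixed letters in capitals.
SDF2L1, ERSE-II, chr22:21642114-21642124: gttttgATTGGtCCACGcttccg
CRELD2, ERSE, chr22:49918554-49918572: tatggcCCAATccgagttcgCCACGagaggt
HERPUD1, ERSE-II, chr16:56932025-56932035: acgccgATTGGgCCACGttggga
HSPA5, ERSE, chr9:125241391-125241409: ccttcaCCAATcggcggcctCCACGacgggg
XBP1, ERSE, chr22:28800603-28800621: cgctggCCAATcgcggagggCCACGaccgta
CALR, ERSE, chr19:12938384-12938402: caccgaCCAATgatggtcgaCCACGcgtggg
CANX, ERSE, chr5:179698778-179698796: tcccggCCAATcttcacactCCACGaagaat

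The coordinates are those of the match without its 6 flanking bases on each side. For HSPA5 and HERPUD1, whose promoters are textbook cases of ERSE and ERSE-II, the whole window is given on the strand of the gene, with the fixed letters in capitals.
HSPA5, minus strand, chr9:125241294-125241593: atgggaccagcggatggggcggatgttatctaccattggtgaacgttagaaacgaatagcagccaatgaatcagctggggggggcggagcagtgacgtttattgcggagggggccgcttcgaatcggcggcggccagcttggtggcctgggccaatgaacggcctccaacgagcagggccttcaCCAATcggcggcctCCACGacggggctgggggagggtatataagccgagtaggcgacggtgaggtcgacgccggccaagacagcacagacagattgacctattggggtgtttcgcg
HERPUD1, plus strand, chr16:56931892-56932191: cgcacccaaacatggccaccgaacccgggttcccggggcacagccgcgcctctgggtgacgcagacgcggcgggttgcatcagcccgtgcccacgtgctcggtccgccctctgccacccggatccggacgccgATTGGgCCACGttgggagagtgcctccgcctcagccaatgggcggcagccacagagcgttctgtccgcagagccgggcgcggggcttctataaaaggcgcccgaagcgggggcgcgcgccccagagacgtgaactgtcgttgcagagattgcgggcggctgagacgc

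Genes with such a match did not all move one way. Of the 12, 6 rose (SDF2L1, CRELD2, HERPUD1, TXNDC11, HSPA5 and XBP1), 2 fell (CALR and CANX), and HYOU1, HSP90B1, DNAJC10 and ERO1B did not pass, with a median log2 fold change of 0.32. Of the 25 other genes with a promoter window, 11 rose, 5 fell and 9 did not pass, with a median of 0.19. A single RefSeq start per gene was searched, for exact letters only. An element at another start or with a changed letter would be missed. Among all genes of at least 5 CPM with an ERSE in the window, 4 of 14 were higher and 4 lower. With an ERSE-II, 4 of 11 were higher and 1 lower, and with any of the 3 elements 30 of 105 were higher and 13 lower. These sets include the 12 genes themselves, 7 of them among those with an ERSE. Without any element, 2222 of 8677 genes were higher and 1579 lower. HSP90B1 and HYOU1 held 2 matches each, of ERSE and of ERSE-II respectively, and TXNDC11 held the UPRE core after its start.

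**Figure D2:**
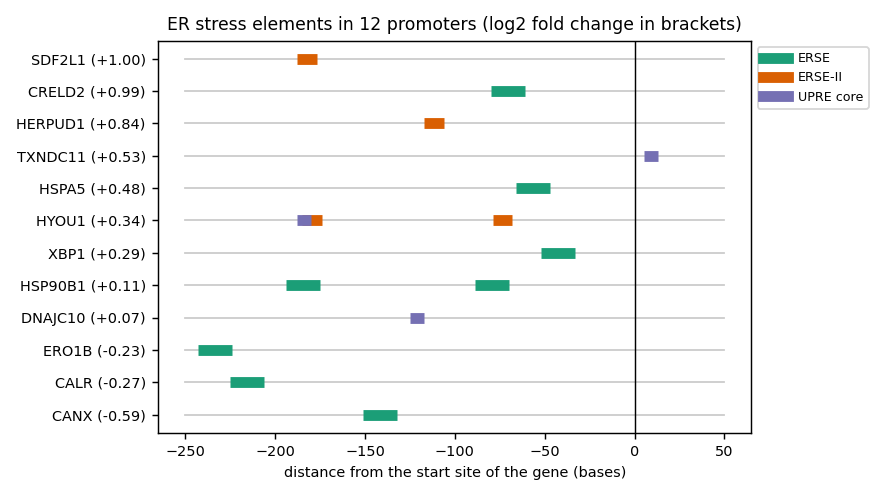
Position of ERSE (green), ERSE-II (orange) and the UPRE core (purple) in the promoters of 12 genes, in bases from the RefSeq start (vertical line), with the log2 fold change after siCRP2 in brackets. Genes are ordered by that change, and elements occur from SDF2L1 (1.00) down to CANX (-0.59).

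Among the 5 sensors and transcription factors, the IRE1 and XBP1 branch was slightly higher, CREB3L2 was lower, and both ATF6 genes had estimates near 0. The median log2 fold change of the group was -0.02. Gene positions are those of GENCODE release 44 on GRCh38. ATF6 (ENSG00000118217, plus strand, chr1:161766298-161977574), which encodes the sensor that becomes a transcription factor once cut, stood at 119, 124 and 111 CPM in the siCTR libraries 0412, 0611 and 1311 and at 113, 119.9 and 118 CPM in the siCRP2 libraries of those codes. These ranges overlap, and the log2 fold change was -0.02 (SE 0.0824, edgeR adjusted p = 0.91). ATF6B, its close relative, had -0.06 (adjusted p = 0.63).

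XBP1 (ENSG00000100219, minus strand, chr22:28794555-28800597) stood at 97.4, 118 and 113 CPM in siCTR and at 138, 129 and 133 CPM in siCRP2 libraries, in the same order of codes. All siCRP2 values lay above all siCTR values, the siCTR library 0412 being the lowest. The difference was 0.29 on the log2 scale (SE 0.0889, edgeR adjusted p = 0.024). Counts per gene do not separate the spliced from the unspliced mRNA of XBP1. ERN1 (ENSG00000178607, minus strand, chr17:64039080-64130819), the gene of the IRE1 sensor that does the splicing, stood at 19.8, 27.7 and 32.3 CPM in siCTR and at 33.3, 39.8 and 40.4 CPM in siCRP2 libraries. The groups did not overlap, though the highest siCTR and the lowest siCRP2 library lay close. Its log2 fold change was 0.51 (SE 0.162, edgeR adjusted p = 0.040).

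CREB3L2 (ENSG00000182158, minus strand, chr7:137874979-138002086), an ER-bound transcription factor related to ATF6 that promotes secretory capacity, stood at 172, 149 and 147 CPM in siCTR and at 87.3, 90.2 and 87.3 CPM in siCRP2 libraries. The siCRP2 libraries were close to each other and all far below the siCTR libraries. This was a log2 fold change of -0.82 (SE 0.0869, edgeR adjusted p = 3.4e-06). The calls of XBP1 and ERN1 were near the threshold in the main fit, which leaves the code out. The adjusted p of XBP1 ran from 2.69e-05, with the code as a block, to 0.114 over the 15 alternatives. It was 0.0908, 0.0895, 0.114 and 0.0909 without siCRP2 0412, siCRP2 0611, siCRP2 1311 and siCTR 0412. For ERN1 it ran from 2.86e-09, with the code as a block, to 0.175. It was 0.175, 0.161, 0.0511 and 0.102 without siCRP2 0611, siCRP2 1311, siCTR 0412 and siCTR 0611.

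**Figure D3:**
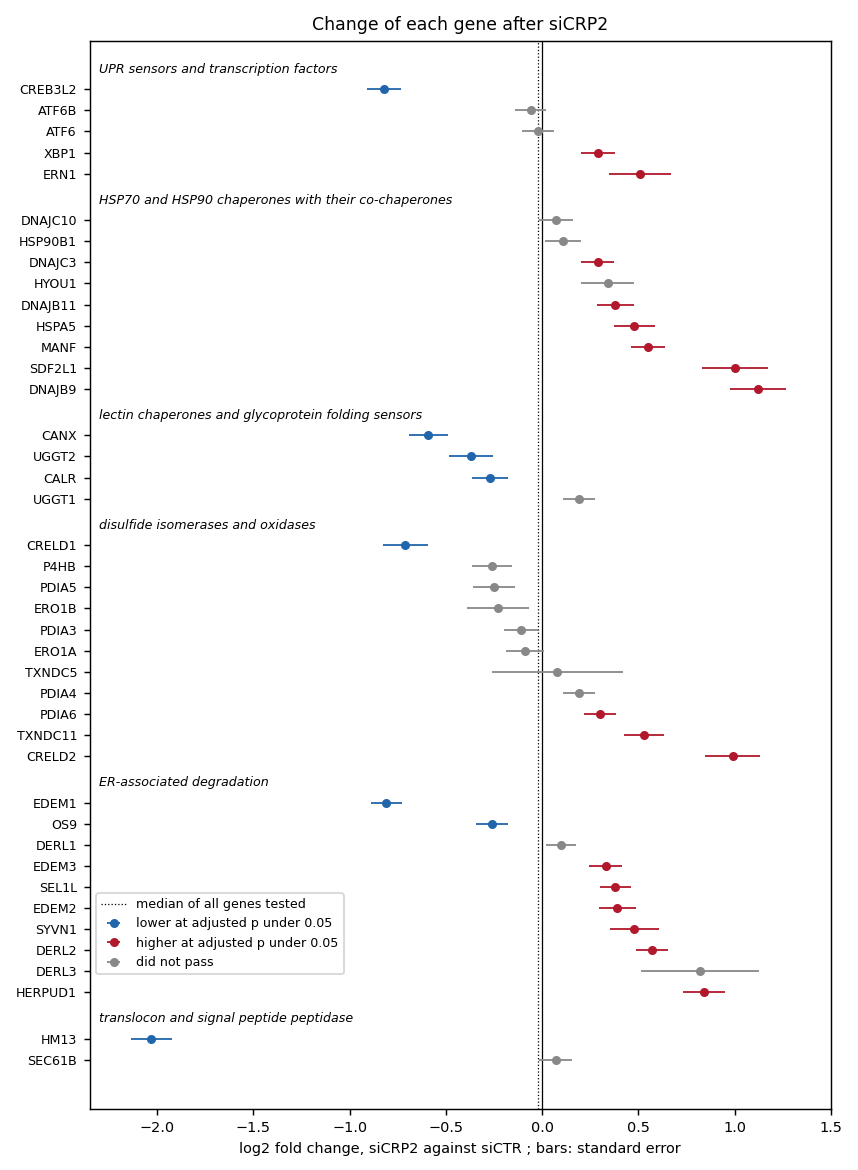
Log2 fold change of each gene, siCRP2 against siCTR, with its standard error as a bar, grouped by role. Blue genes were lower and red genes higher at an adjusted p under 0.05, grey genes did not pass, and the dotted line is the median of all genes tested (-0.02). The HSP70 and HSP90 chaperones lie at or above 0 and 3 of the 4 lectin chaperone genes below it.

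The HSP70 and HSP90 chaperones and their co-chaperones were higher or had estimates above 0. Of 9 genes, 6 rose (66.7%, against 25.9% of expressed protein-coding genes) and 3 did not pass, and the median log2 fold change was 0.38. DNAJB9 and SDF2L1 had the highest log2 fold changes of the 41 genes. HSPA5 (ENSG00000044574, minus strand, chr9:125234853-125241382), the gene of the ER's HSP70 (BiP), stood at 1664, 1960.1 and 2212 CPM in siCTR and at 2719.6, 2499.95 and 2915 CPM in siCRP2 libraries 0412, 0611 and 1311. Every siCRP2 library exceeded every siCTR library, and siCTR 0412 was again the lowest. The log2 fold change was 0.48 (SE 0.108, edgeR adjusted p = 0.0033).

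HSP90B1 (ENSG00000166598, plus strand, chr12:103930107-103953931), which encodes the ER's HSP90 (GRP94), stood at 1691, 1874 and 1522 CPM in siCTR and at 1839, 1841 and 1802 CPM in siCRP2 libraries. The groups overlap, because siCTR 0611 lay above all siCRP2 libraries. Its log2 fold change was 0.11 (edgeR adjusted p = 0.46). HYOU1, a large HSP70 relative that acts as nucleotide exchange factor for BiP, had 548 ± 103 CPM in siCTR and 692 ± 89.2 CPM in siCRP2 cells (SD, n = 3 per group), a log2 fold change of 0.34 that did not pass (adjusted p = 0.11), and passed with the code as a block (adjusted p = 3.4e-07) and without siCTR 1311 (0.00266). Its adjusted p ran from 3.4e-07 to 0.389 over the alternatives.

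DNAJB9 (ERdj4, ENSG00000128590, plus strand, chr7:108569867-108574850), a co-chaperone of BiP that restrains IRE1, stood at 42.5, 54.1 and 60.7 CPM in siCTR and at 124, 94.7 and 123 CPM in siCRP2 libraries. The lowest siCRP2 value, in library 0611, was above the highest siCTR value. The estimated log2 fold change was 1.12 (SE 0.145, edgeR adjusted p = 0.00031). SDF2L1 (ENSG00000128228, plus strand, chr22:21642302-21644299), which works with ERdj co-chaperones of BiP, stood at 10.9, 8.33 and 13.2 CPM in siCTR and at 22.3, 17.7 and 25.0 CPM in siCRP2 libraries. No siCRP2 library reached down to the siCTR range, and library 0611 was the lowest of both groups. Its log2 fold change was 1.00 (SE 0.171, edgeR adjusted p = 0.00062). No annotated gene overlaps either of these genes.

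MANF, a secreted ER stress protein that binds BiP, rose from 101 ± 0.908 to 147 ± 13.8 CPM (SD, n = 3 per group, log2 fold change 0.55, adjusted p = 0.00019). DNAJB11 (ERdj3), which brings unfolded clients to BiP, rose by 0.38 and DNAJC3 (p58IPK), a co-chaperone also known as an inhibitor of PERK, by 0.29 on the log2 scale (adjusted p = 0.0071 and 0.019). DNAJC10 (ERdj5), a reductase that helps ERAD, had 0.07 (adjusted p = 0.65). Without siCRP2 1311 the adjusted p was 0.0574 for HSPA5 (range over the alternatives 9.9e-13 to 0.0574) and 0.0731 for DNAJB11 (4.07e-07 to 0.0731). For DNAJC3 (2.42e-05 to 0.13) it was 0.066, 0.0559, 0.13 and 0.058 without siCRP2 0412, siCRP2 0611, siCRP2 1311 and siCTR 0412.

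Lectin chaperones hold N-glycosylated proteins during folding. Of the 4 genes of this group, CANX, CALR and UGGT2 fell (75.0%, against 18.0% of expressed protein-coding genes) and UGGT1 did not pass. The median log2 fold change was -0.32. Calnexin and calreticulin bind glycoproteins that carry a last glucose, and UGGT1 and UGGT2 put that glucose back on proteins that are still misfolded. CANX (ENSG00000127022, plus strand, chr5:179678628-179731641), the gene of the membrane-bound calnexin, stood at 1719, 2035 and 1993 CPM in siCTR and at 1135, 1366 and 1311 CPM in siCRP2 libraries. All siCRP2 libraries lay well below the lowest siCTR library, and 0412 was the lowest in both groups. The log2 fold change was -0.59 (SE 0.1, edgeR adjusted p = 0.00031).

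CALR, whose protein is soluble, fell from 1628 ± 102 to 1351 ± 92.3 CPM (SD, n = 3 per group, log2 fold change -0.27, adjusted p = 0.042). UGGT2 fell from 22.8 ± 0.967 to 17.6 ± 0.441 CPM (SD, n = 3 per group, log2 fold change -0.37, adjusted p = 0.023). UGGT1 had a log2 fold change of 0.19 (adjusted p = 0.11), its siCRP2 libraries all lay above its siCTR libraries, and with the code as a block it passed (adjusted p = 0.0078, range over the alternatives 0.00781 to 0.421). The adjusted p of CALR ran from 0.000128 to 0.184 over the alternatives, and was 0.155, 0.152 and 0.184 without siCRP2 0412, siCRP2 1311 and siCTR 0611 and 0.0791 by edgeR's exact test. For UGGT2 (0.000301 to 0.0875) it was 0.0566, 0.073 and 0.0875 without the same libraries.

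The 11 disulfide isomerases and oxidases form and rearrange the disulfide bonds of proteins in the ER. Of them, 3 rose (27.3%), 1 fell (9.09%) and 7 did not pass, with a median log2 fold change of -0.09. Expressed protein-coding genes had 25.9% higher and 18.0% lower. CRELD1 and CRELD2 are related proteins with EGF-like repeats, and their mRNAs moved in opposite directions. CRELD2 (ENSG00000184164, plus strand, chr22:49918167-49927540), a secreted ER stress protein with isomerase activity, stood at 14.4, 13.0 and 11.99 CPM in siCTR and at 30.9, 21.3 and 26.3 CPM in siCRP2 libraries. Each siCRP2 library lay far above the narrow siCTR range, library 0611 being the lowest of them. CRELD2 thus had a log2 fold change of 0.99 (SE 0.142, edgeR adjusted p = 6.8e-05).

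CRELD1 (ENSG00000163703, plus strand, chr3:9933793-9945413), the membrane-bound relative, stood at 33.2, 32.3 and 27.4 CPM in siCTR and at 18.8, 19.7 and 18.4 CPM in siCRP2 libraries. No values overlapped, and the siCRP2 libraries were nearly equal. Its log2 fold change was -0.71 (SE 0.115, edgeR adjusted p = 0.00021). Of the exon bases of CRELD1, 22.5% are shared with another gene on its strand (ENSG00000288550) and 30.0% with PRRT3 on the opposite strand, so its count depends on how shared reads were assigned.

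TXNDC11, a thioredoxin domain protein of the ER membrane, rose from 35.1 ± 3.62 to 50.6 ± 2.58 CPM (SD, n = 3 per group, log2 fold change 0.53, adjusted p = 0.0011). PDIA6, an abundant isomerase, rose from 539 ± 16.4 to 666 ± 15.1 CPM (SD, n = 3 per group, log2 fold change 0.30, adjusted p = 0.012). Its adjusted p was 0.0846 without siCRP2 0611 and 0.0931 without siCRP2 1311 (range over the alternatives 8.24e-06 to 0.0931). PDIA6 shares 25.2% of its exon bases with ATP6V1C2 on the opposite strand.

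The main isomerase P4HB (PDI) had a log2 fold change of -0.26 (adjusted p = 0.080). PDIA3, the partner of the lectin chaperones, had -0.11 (0.39), PDIA4 had 0.19 (0.12) and PDIA5 had -0.25 (0.11). With the code as a block P4HB and PDIA5 were lower (adjusted p = 0.00019 and 0.0097) and PDIA4 was higher (0.010). Without siCTR 0412, P4HB and PDIA5 passed as well (0.0113 and 0.0463). Over all alternatives the adjusted p ran from 0.000192 to 0.275 for P4HB, from 0.00972 to 0.252 for PDIA5 and from 0.0101 to 0.409 for PDIA4. The oxidases ERO1A and ERO1B, which feed oxidizing equivalents to the isomerases, had -0.09 and -0.23 (adjusted p = 0.55 and 0.34). TXNDC5 had 0.08 (adjusted p = 0.90) at a mean of 0.918 CPM in siCTR and 0.975 CPM in siCRP2 cells. It shares 60.9% of its exon bases on the same strand with the readthrough gene BLOC1S5-TXNDC5, so the level of the TXNDC5 protein's mRNA is uncertain here.

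Of the 10 ERAD genes among the 41, 6 rose, EDEM1 and OS9 fell, and DERL1 and DERL3 did not pass, with a median log2 fold change of 0.38. Of 23 other ERAD genes, 6 rose (26.1%, against 25.9% of expressed protein-coding genes) and 4 fell. ERAD picks misfolded glycoproteins by their trimmed mannoses, passes them to a ubiquitin ligase in the ER membrane and draws them out to the proteasome. HERPUD1 (ENSG00000051108, plus strand, chr16:56932142-56944864), a membrane protein that organizes the ligase complex, stood at 82.6, 80.4 and 89.0 CPM in siCTR and at 172, 123 and 157 CPM in siCRP2 libraries. The siCTR libraries were close together, and each siCRP2 library exceeded them. The log2 fold change was 0.84 (SE 0.110, edgeR adjusted p = 5.0e-05).

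At the core of the ligase, SEL1L, the adaptor, rose from 214 ± 7.61 to 278 ± 6.06 CPM (SD, n = 3 per group, log2 fold change 0.38, adjusted p = 0.0019). SYVN1 (HRD1), the ligase itself, rose from 122 ± 21.8 to 170.5 ± 19.98 CPM (SD, n = 3 per group, log2 fold change 0.48, adjusted p = 0.016). Of the derlins, which form part of the channel with HRD1, DERL2 rose from 70.9 ± 2.46 to 105 ± 4.51 CPM (SD, n = 3 per group, log2 fold change 0.57, adjusted p = 8.8e-05). DERL1 had a log2 fold change of 0.10 (adjusted p = 0.42). DERL3 was detected at low counts, 73 in the siCTR and 168 in the siCRP2 libraries in all, and had 0.82 (edgeR adjusted p = 0.062). It passed with the code as a block (0.0040) and without siCTR 1311 (0.0199), in a range of 0.004 to 0.333 over the alternatives, and 77.0% of its exon bases are shared with SMARCB1 on the opposite strand.

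The mannose-trimming EDEM genes did not move together. EDEM1 (ENSG00000134109, plus strand, chr3:5187646-5219958) stood at 193, 203 and 199 CPM in siCTR and at 118, 110.4 and 112 CPM in siCRP2 libraries. Both groups were tight and far apart. EDEM1 had a log2 fold change of -0.81 (SE 0.0799, edgeR adjusted p = 1.7e-06), while EDEM2 and EDEM3 rose by 0.39 and 0.33 (adjusted p = 0.0064 and 0.0089). OS9, a lectin that hands trimmed glycoproteins to SEL1L, fell by 0.26 (adjusted p = 0.029). It shares 15.9% of its exon bases with another gene on its strand and 16.6% with genes on the opposite strand.

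Some of these calls were lost when a single library was left out, where fewer genes passed over the whole table as well. SYVN1 had adjusted p values of 0.0536, 0.0823 and 0.0759 without siCRP2 0412, siCRP2 1311 and siCTR 0611 (range over the alternatives 2.68e-13 to 0.0823), and OS9 had 0.0937, 0.0995 and 0.138 without the same libraries and 0.0577 by edgeR's exact test (0.00013 to 0.138). EDEM2 had 0.0591 without siCRP2 0611 (3.86e-06 to 0.0591) and EDEM3 had 0.064 without siCRP2 1311 (1.88e-06 to 0.064). HERPUD1, SEL1L, DERL2 and EDEM1 passed under all 15 alternatives.

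HM13 and SEC61B belong to entry into the ER. HM13, the signal peptide peptidase, cuts signal peptides within the membrane after they have been released, and also takes part in ERAD. It stood at 288, 324 and 380 CPM in the siCTR libraries 0412, 0611 and 1311 and at 73.4, 87.0 and 82.9 CPM in the siCRP2 libraries of those codes. Every siCRP2 library lay far under the lowest siCTR library. The log2 fold change was -2.03 (SE 0.107, edgeR adjusted p = 5.0e-09), and over the 15 alternatives it ran from -2.12 to -1.92.

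HM13 (ENSG00000101294) lies on the plus strand of chromosome 20, chr20:31514428-31577923. The genes that overlap it held few counts: MCTS2, which shares 8.0% of the exon bases of HM13 on its strand, had 91 counts in the siCTR and 64 in the siCRP2 libraries in all, HM13-IT1 had 7 and 14, HM13-AS1 had 2 and 0, and ENSG00000274364 had 1 in each. SEC61B, a subunit of the translocon through which new chains enter the ER, had a log2 fold change of 0.07 (adjusted p = 0.63).

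**Figure D4:**
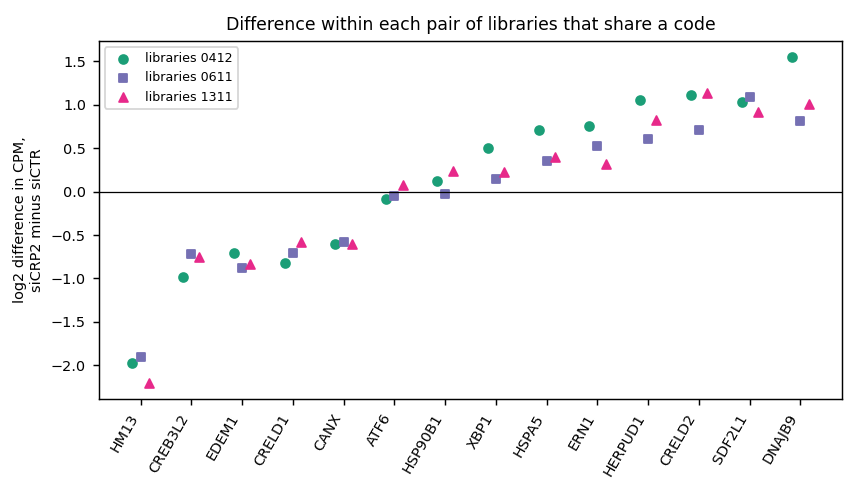
Difference of log2 CPM between the siCRP2 and the siCTR library of the same code, for 14 genes ordered by log2 fold change. Points are single pairs, and their shape and colour mark the code. For the 5 genes at the left (HM13 to CANX) all 3 pairs lie below 0, and for the 7 at the right (XBP1 to DNAJB9) all lie above it. The groups of these genes do not overlap, so any pairing would show the same signs.

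Within the pairs of libraries that share a code, the genes with fold changes over 1.5 kept their direction in all 3 pairs. Their groups do not overlap, so this would hold for any pairing and adds no support. HM13 differed by -1.97, -1.90 and -2.20 on the log2 scale in pairs 0412, 0611 and 1311, EDEM1 by -0.71, -0.88 and -0.83, and CANX by -0.60, -0.58 and -0.60. The pairs of CANX were nearly equal. Several genes that rose differed most in pair 0412: DNAJB9 by 1.55, against 0.81 and 1.01 in the others, HSPA5 by 0.71 against 0.35 and 0.40, and XBP1 by 0.50 against 0.14 and 0.23. SDF2L1, at 1.03, 1.09 and 0.92, and CRELD2, at 1.11, 0.71 and 1.14, did not show this order.

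The transcripts were also searched for a short sequence. An earlier analysis of these data had picked the heptamer GCCTCAC from its relation to the fold changes, so its share in genes that fell is no independent result. It stood in the canonical transcript of 11 of the 41 genes (26.8%), against 24.1% of the protein-coding genes of at least 5 CPM. By direction it stood in 4 of the 8 genes that fell, 4 of the 17 that rose and 3 of the 16 others, against 48.5%, 11.6% and 22% of the protein-coding genes of at least 5 CPM that were lower, higher or neither. Its last 6 bases, CCTCAC, stood in all 8 genes that fell, 8 of the 17 that rose and 10 of the 16 others, against 83.0%, 47.0% and 61.5%. In the 4 genes that fell the heptamer lies in the last exon, in the 3′ UTR. These sites are shown on the strand of the gene with the heptamer in capitals and GENCODE coordinates (GRCh38) of the heptamer.
HM13, plus strand, chr20:31569514-31569520: ggactgattttGCCTCACattaaaaactc
EDEM1, plus strand, chr3:5217383-5217389: taaaacttccaGCCTCACatagcacggtt
CANX, plus strand, chr5:179730554-179730560: gtatatgtcatGCCTCACtttcttctagc
CREB3L2, minus strand, chr7:137879476-137879482: gatgacacaatGCCTCACtcaggccccgg

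In the genes that rose, XBP1, ERN1 and EDEM2 held the heptamer in the coding sequence and DNAJB11 in the 5′ UTR and the coding sequence. DNAJC10, ERO1B and DERL3, which did not pass, held it in the 3′ UTR. CRELD1, which fell with a fold change over 1.5, has the hexamer but not the heptamer. Because the heptamer was picked from these same fold changes, its presence in genes that fell is no result. Where its matches lie over all genes was not counted, so their place here is only a description. The part of this sequence in the falls was not tested.

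Beyond the 41 genes, 143 of 146 other ER genes in lists by function were tested, of which 32 rose (22.4%) and 29 fell (20.3%), with a median log2 fold change of 0.07. These shares lie near the 25.9% and 18.0% of protein-coding genes averaging 5 CPM or more, whose median was 0.08. In the PERK arm and the integrated stress response, the UPR branch that slows translation, 7 of 16 rose and 1 fell, with a median of 0.37. PPP1R15B, the regulatory subunit of a phosphatase of eIF2-alpha, rose by 0.73 and VLDLR, a lipoprotein receptor, by 0.77. EIF2S1, the gene of eIF2-alpha itself, fell from 160.1 ± 5.04 to 78.6 ± 8.02 CPM (SD, n = 3 per group, log2 fold change -1.03, edgeR adjusted p = 4.6e-07). Among 12 tested genes of the UPR proteases, their ligase and the CREB3 family, NFYB, a subunit of the factor that binds CCAAT, rose by 0.32 and YY1, a transcription factor, fell by 0.24, while 10 did not pass.

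Of 17 other disulfide isomerases and oxidoreductases, 2 rose (11.8%) and 3 fell (17.6%), against 25.9% and 18.0% of expressed protein-coding genes. ERP44, which retrieves ERO1 and other clients to the ER, rose by 0.55 and TXNDC12 by 0.42. The sulfhydryl oxidase QSOX1 was among those that fell, by 0.33. The ER prolyl isomerases and the collagen chaperone were, of these lists, the one with the largest share of lower genes. Of 9 genes, 6 fell (66.7%, against 18.0% of expressed protein-coding genes) and 1 rose (11.1%), with a median of -0.63. PPIB (cyclophilin B) fell by 0.85, FKBP9 by 0.93 and FKBP14 by 0.58. In the rest of ERAD, ERLEC1, a lectin with a role like that of OS9, fell by 1.53, SDF2, the close relative of SDF2L1, fell by 1.04, and the ubiquitin-conjugating enzyme UBE2J1 rose by 0.65.

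SDF2 and SDF2L1 thus moved in opposite directions. SDF2 stood at 56.0, 59.7 and 59.6 CPM in siCTR and at 25.3, 30.5 and 29.5 CPM in siCRP2 libraries, with no overlap. ERLEC1 and OS9, the lectins of ERAD, both fell, but unequally, by 1.53 and 0.26 on the log2 scale. The call of OS9 was lost under 4 of the 15 alternatives, edgeR's exact test among them.

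For translocation into the ER, 8 of 19 genes of the translocon and the signal recognition particle rose (42.1%) and 2 fell (10.5%, median 0.15). Expressed protein-coding genes, against which the shares in this paragraph stand, had 25.9% higher and 18.0% lower. SSR2, a translocon-associated protein, rose by 0.57 and SRPRB, a subunit of the signal recognition particle receptor, by 0.60, while SRPRA, the other subunit of that receptor, fell by 1.14. Of 10 genes of the signal peptidase and intramembrane proteases, 4 rose and 2 fell, with SPCS3 at 0.62, SPCS2 at 0.37 and SPCS1 at -0.47. Of 16 genes of the oligosaccharyltransferase and the glucosidases, 2 rose and 2 fell (12.5% each). DAD1 rose by 0.45 and OSTC by 0.35, and TMEM258 was among those that fell, by 0.38. In COPII transport and ER export, 8 of 21 fell (38.1%) and 1 rose (4.76%). KDELR3, a receptor that returns ER proteins, fell by 1.66, the coat gene SEC24A by 1.04, and SEC23B rose by 0.71.

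Outside the ER, 5 of 16 cytosolic chaperone genes rose and 1 fell. HSP90AA1, the inducible cytosolic HSP90, rose by 0.55, DNAJB4 rose by 0.89, and DNAJB1, an HSP40 induced by heat, fell by 0.36. All genes named in these lists passed the test of edgeR, with adjusted p from 6.3e-09 to 0.036. Over all the lists, cytosolic chaperones included, 37 of 159 genes rose (23.3%) and 30 fell (18.9%), again near the 25.9% and 18.0% of expressed protein-coding genes. Without siCRP2 1311 the counts were 23 and 20, while the shares over all genes tested went from 12.5% to 8.46% higher and from 11.5% to 9.36% lower.

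**Figure D5:**
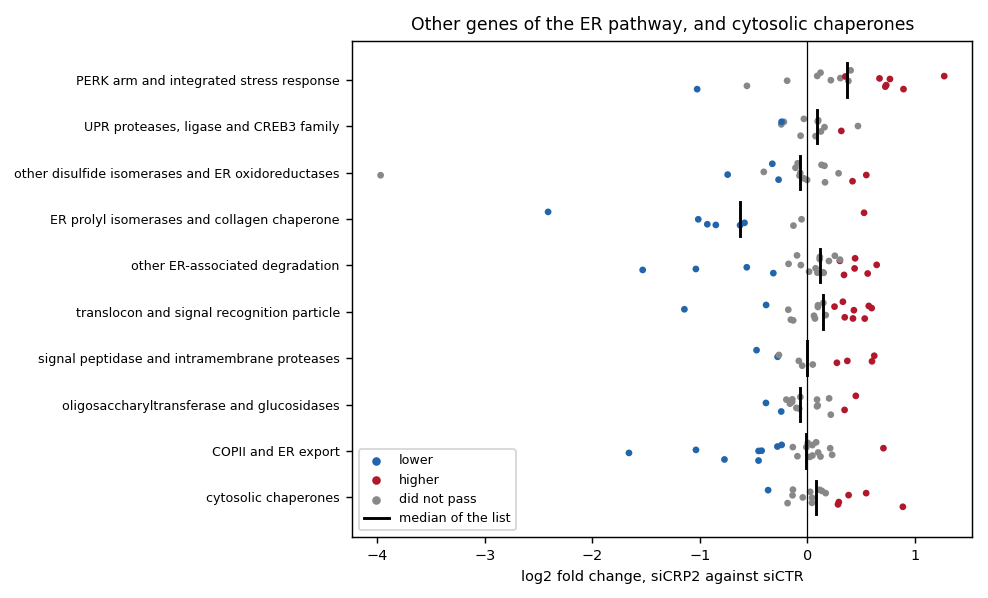
Log2 fold change of the other ER genes and of cytosolic chaperones, siCRP2 against siCTR, 1 point per gene (vertical scatter is for display) and a black bar at the median of each list. Blue genes were lower and red genes higher at an adjusted p under 0.05. The prolyl isomerase list lies furthest to the left (median -0.63), and the leftmost point, at -3.97, did not pass.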

How the data were processed

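RNA of 6 cultures of MDA-MB-231 cells was sequenced, 3 per group. The deposited table holds raw counts of 58395 genes. To make them the authors mapped read pairs to GRCh38 with STAR in its gene counting mode, which leaves out reads that overlap more than a single gene. The STAR version, the annotation and the strand setting were not given in the sources used here, so reads of a gene and of an antisense partner may not be separated. On the library kit the sources differ: the labels name the standard version and the paper a stranded one. Library totals ran from 17336798 to 39115778 counts. The labels give the harvest at 65 h after transfection, and the methods of the study differ slightly in this time. Between replicates, counts varied beyond sampling noise (chi-square 13.7 to 53.6 per degree of freedom). The p-values are set against the spread among the libraries, which are called biological replicates in the paper. edgeR shares information on that spread between genes. With the code as a block, little is left in the 6 libraries to estimate it for a single gene. That quasi-likelihood fit still gave HM13 an adjusted p of 6.47e-203, so its p-values rest largely on spread shared over genes.

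Genes were kept where at least 2 of 3 libraries in either group had a count of at least 1 (23806). They were scaled by TMM and compared, siCRP2 against siCTR, with the robust quasi-likelihood method of edgeR 4.0.16 in R 4.3.3, and p-values were adjusted after Benjamini and Hochberg over all of them. CPM used the library totals times their TMM factors. Symbols and coordinates were from GENCODE release 44, transcript letters from its canonical transcripts and promoters from RefSeq (GRCh38.p14). The 42 symbols, the other lists, the promoter elements and the heptamer were chosen with earlier results of these data known. VIMP1 matched no symbol.

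All 41 genes are named. From each other list come up to 3 genes that passed at an adjusted p under 0.05, those with the smallest p, and genes that overlap a gene changed over 2 fold are named too. Values in every library are given for genes that passed with a fold change over 1.5, and for ATF6, XBP1, ERN1, HSPA5 and HSP90B1. SDF2, ERLEC1 and OS9 were set side by side after their values were seen.

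The 15 alternatives were edgeR's exact test, which the study used, DESeq2 1.42.0, size factors of RLE and of the upper quartile, filterByExpr, no filter, no robust estimation, thinning to equal depth, the code as a replicate block, and leaving out each of the 6 libraries. The codes in the column names could not be tied to the replicate numbers of the labels. Deviations from group means had correlations of 0.723, 0.459 and 0.744 in the pairs of libraries with a common code (10828 genes) and of 0.114 or less in other pairs, so the codes were taken to pair the libraries. The main fit, and the p-values given unless stated otherwise, do not use this pairing. Of the fits, only the alternative with the code as a block does.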

Additional observations from a re-analysis of the deposited data

How the results depend on the processing

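Of the 41 genes, 20 kept their direction and their side of the threshold under all 15 alternatives, among them CREB3L2, DNAJB9, SDF2L1, MANF, CANX, CRELD1, CRELD2, HERPUD1, EDEM1 and HM13. For 12 genes a call was lost under at least 1 alternative and for 6 a call was gained. For ATF6 (0.00 without siCRP2 0412, 0.02 without siCTR 0611), DNAJC10 (-0.02 without siCRP2 1311, otherwise up to 0.11) and TXNDC5 (-0.12 without siCRP2 0412, -0.06 without siCTR 0412, otherwise up to 0.32) the sign of an uncalled log2 fold change turned. Leaving out each library in turn gave 9 to 19 genes that rose and 5 to 10 that fell, and 23 to 36 higher and 20 to 30 lower genes of the other lists. The medians of roles then ran from 0.31 to 0.49 for the HSP70 and HSP90 chaperones, from -0.39 to -0.28 for the lectin chaperones and from 0.35 to 0.41 for ERAD. The median of the lectin chaperones was -0.37 with upper quartile factors and with filterByExpr, and that of ERAD 0.34 with both. The cause of these shifts was not tested. With the code as a replicate block 21 genes rose and 10 fell, and HYOU1, UGGT1, PDIA4, PDIA5, P4HB and DERL3 gained a call while no call was lost. The p-values of that fit rest largely on spread shared over genes, which limits what these gained calls show. Scaling by upper quartile factors moved the median of all genes to -0.07, and XBP1, ERN1 and DNAJC3 did not pass under it. TXNDC5 and DERL3 had only 59 to 168 counts per group. They share 60.9% (same strand) and 77.0% (opposite strand) of their exon bases with another gene. Reads that overlap more than a single gene were left out, so a low level and lost reads cannot be told apart.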
